A study of Mus musculus with 29 samples.

Results

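A set of 8 genes that mark the subsets of dendritic cells was followed through 29 mice with peritoneal dissemination of gastric cancer: Xcr1, Clec9a, Batf3, Flt3, Zbtb46, Cd209a, Siglech and Fscn1. They are the rows of the count table with these symbols, 8 of 24421 genes. All 8 were present and passed the filter on low counts in each of the 9 comparisons made. Female C57BL/6J mice, 5 to 6 weeks of age at the start, carried YTN16, a transplantable mouse gastric cancer line, in the peritoneal cavity. All received intraperitoneal injections: PBS in untreated mice, and antibodies against PD1, against CTLA4 or against both (dual ICI) in the others. By the study's text, mice taken on day 35 had more rounds of injection than mice taken on day 21. Peritoneum with or without nodules was taken for RNA-seq, 1 library per mouse. On day 21 there were 5 untreated and 5 dual ICI mice. On day 35 there were 5 untreated, 5 anti-PD1, 4 anti-CTLA4, 2 uncured dual ICI and 3 cured dual ICI mice. Each library is 1 mouse, so p-values measure the spread between mice. The labels give treatment and day. Outcome was taken from the study's text, which numbers the cured dual ICI mice 2, 3 and 4, with these numbers read as those of the libraries. The same text counts 1 cured anti-PD1 mouse, which was not identified here, so that group was kept whole. In what follows, cured mice are the 3 cured dual ICI mice.

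Dendritic cells take up antigen and present it to T cells. Conventional dendritic cells of type 1 (cDC1) present antigens of dead cells to CD8+ T cells, type 2 cells (cDC2) mainly serve CD4+ T cells, and plasmacytoid dendritic cells (pDC) are known for type I interferon. Mature dendritic cells express Ccr7 and migrate to lymph nodes. Xcr1 encodes the receptor for the chemokine XCL1, Clec9a a lectin that binds the actin of dead cells, and Batf3 a transcription factor needed for cDC1. Flt3 encodes the receptor for the growth factor FLT3L, on which dendritic cell development depends, and Zbtb46 a transcription factor of conventional dendritic cells. Cd209a encodes a lectin of cDC2 and monocyte-derived cells, Siglech a surface receptor of pDC, and Fscn1 an actin-bundling protein of mature dendritic cells that fibroblasts and tumor cells also express.

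The genes lie on 7 chromosomes of GRCm38: Xcr1 on chromosome 9 (123852315 to 123862029, minus strand), Clec9a on 6 (129408862 to 129424763, plus), Batf3 on 1 (191097847 to 191108945, plus), Flt3 on 5 (147330741 to 147400489, minus), Zbtb46 on 2 (181387762 to 181459426, minus), Cd209a on 8 (3743397 to 3748984, minus), Siglech on 7 (55768178 to 55778925, plus) and Fscn1 on 5 (142960343 to 142973185, plus). Clec9a overlaps Clec1b on the same strand and Flt3 overlaps an antisense transcript, and whether the counting used strand is not given in the sources used here, so reads could have been shared there. Cd209a has close relatives among which reads could also have been split. The 250 bases before the start of Xcr1 and Clec9a, the pair of cDC1 surface receptors that stood highest together under dual ICI on day 21, and of Flt3, whose level was lowest in the 3 cured dual ICI mice, are shown from RefSeq (GRCm38.p6), 5′ to 3′ on the strand of the gene.
Xcr1, chr9:123862030-123862279, minus strand: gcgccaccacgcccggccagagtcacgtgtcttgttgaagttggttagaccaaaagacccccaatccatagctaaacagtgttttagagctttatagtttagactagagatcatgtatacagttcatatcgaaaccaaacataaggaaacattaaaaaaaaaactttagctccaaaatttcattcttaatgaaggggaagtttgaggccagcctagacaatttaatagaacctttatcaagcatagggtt
Clec9a, chr6:129408612-129408861, plus strand: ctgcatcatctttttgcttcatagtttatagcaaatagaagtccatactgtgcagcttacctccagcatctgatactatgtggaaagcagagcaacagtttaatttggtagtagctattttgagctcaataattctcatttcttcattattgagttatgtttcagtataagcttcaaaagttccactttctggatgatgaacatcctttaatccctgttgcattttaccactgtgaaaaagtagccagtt
Flt3, chr5:147400490-147400739, minus strand: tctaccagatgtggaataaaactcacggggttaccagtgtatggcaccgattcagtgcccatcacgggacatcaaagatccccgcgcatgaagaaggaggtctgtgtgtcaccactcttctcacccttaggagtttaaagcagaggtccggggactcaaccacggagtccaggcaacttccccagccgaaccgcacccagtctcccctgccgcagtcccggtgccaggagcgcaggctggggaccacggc
The windows of Xcr1 and Clec9a held 38.8% and 35.6% G and C, near the 10th percentile of 38.4% of the 27025 promoter windows of RefSeq, whereas that of Flt3 held 59.2% and that of Batf3 76%. Both strands were searched for TGANTCA (the AP-1 motif), GGAANNGAAA (a composite motif of PU.1 and IRF factors) and GAAANNGAAA (the interferon-stimulated response element), which 6.87%, 2.38% and 3.04% of all windows hold. Among the 8 genes, the single match was TGANTCA in the window of Zbtb46, so no letters of the sequences shown are in capitals. That window (181424389 to 181424638) lies inside the gene as placed above and not before its 5′ end. The window of Batf3 (191098164 to 191098413) also lies inside its gene. The absence of a match says only that these letters are not in these windows.

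Library totals lay between 25989217 and 31219650 counts. Levels are given as CPM, read counts scaled to a common library size, with totals adjusted by TMM, a normalization that assumes most genes do not change. Apart from Fscn1, the markers had few reads. Xcr1 ranged from 20 to 267 counts per library, Siglech from 16 to 98, Flt3 from 18 to 197 and Clec9a from 41 to 312, whereas Fscn1 ranged from 693 to 2419. Per kb of exon, the median level over the 29 libraries was lowest for Xcr1 (0.348 CPM per kb), then Siglech (0.488), Flt3 (0.491), Zbtb46 (0.689) and Clec9a (0.932), and higher for Batf3 (2.51), Cd209a (3.87) and Fscn1 (17.7). In whole tissue, fewer cells of a type and less RNA per cell cannot be told apart. The tissue content differed between libraries: 28 skeletal muscle genes took 5.25% to 28.2% of counts, and 3 of the libraries, those of the cured mice, held both the largest muscle shares (26.4% to 28.2%) and 23.1 to 112 CPM summed over 16 gastric epithelium genes, which mark the tumor. The other libraries labelled as tumor tissue held 840 to 4340 CPM of these genes, except that of anti-PD1 mouse 5, with 70.8 CPM and 26.1% muscle counts.

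**Figure D1:**
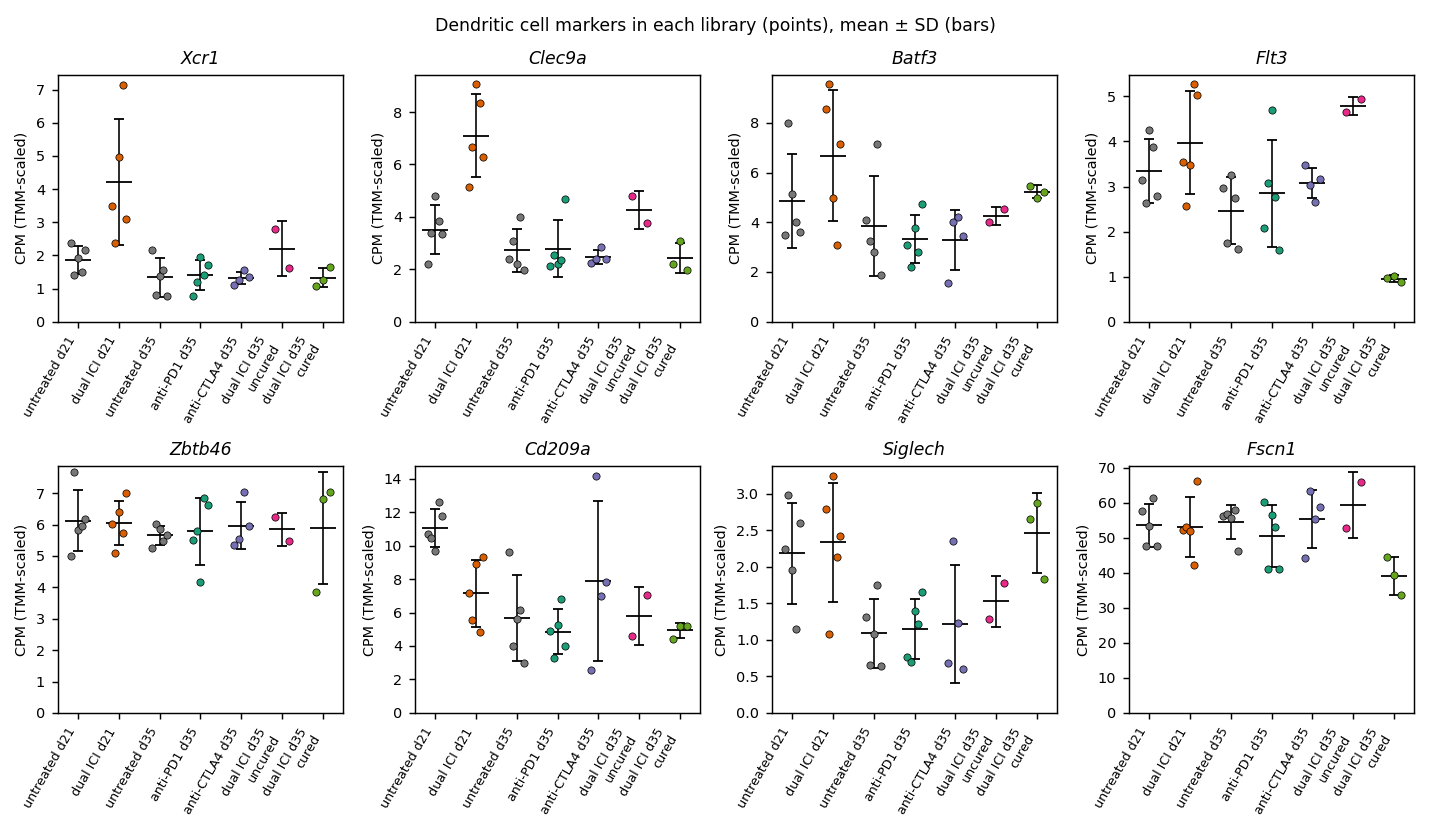
Level of each marker (y axis, CPM, linear scale from 0) in every library by group (x axis). Points are mice, the long bar is the mean and the whiskers are the SD. Xcr1 and Clec9a are highest in dual ICI mice on day 21 (means 4.21 and 7.11 CPM), and Flt3 is lowest in the 3 cured mice (mean 0.956 CPM).

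Whether the cDC1 markers moved with dual ICI was asked first on day 21. Clec9a was 5.14, 6.67, 9.06, 8.34 and 6.30 CPM in dual ICI mice 1 to 5, and 2.21, 3.37, 4.80, 3.85 and 3.34 CPM in untreated mice 1 to 5. Every dual ICI mouse lay above every untreated mouse. The means were 7.11 ± 1.59 and 3.51 ± 0.939 CPM (SD, n = 5 each), a log2 fold change of 1.02 (SE 0.23) whose edgeR adjusted p over all genes was 0.0788, with a range of 0.00133 to 0.225 over the alternatives.

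Xcr1 was 3.50, 2.39, 4.96, 7.14 and 3.09 CPM in dual ICI mice and 2.38, 1.39, 1.93, 1.49 and 2.15 CPM in untreated mice. The groups just failed to overlap, with dual ICI mouse 2 beside untreated mouse 1. The mean rested partly on dual ICI mouse 4, and the log2 fold change was 1.18 (SE 0.31, edgeR adjusted p = 0.136, 0.0113 to 0.332 over the alternatives). DESeq2 called both genes, with adjusted p-values of 0.00133 for Clec9a and 0.0113 for Xcr1.

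Batf3, the cDC1 transcription factor, did not separate the groups: 8.56, 9.54, 5.00, 3.08 and 7.16 CPM in dual ICI mice and 3.47, 8.01, 5.13, 4.01 and 3.6 CPM in untreated mice. The lowest of these 10 values belonged to the dual ICI mouse with the most Xcr1. The log2 fold change of Batf3 was 0.46 (SE 0.32, edgeR adjusted p = 0.692).

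The cDC2 marker Cd209a stood on the other side. It was 7.16, 5.55, 8.90, 4.81 and 9.33 CPM in dual ICI mice and 10.7, 10.4, 9.67, 12.6 and 11.8 CPM in untreated mice. Every dual ICI mouse lay below every untreated mouse, with a log2 fold change of -0.62 (SE 0.19, edgeR adjusted p = 0.225, 0.00742 to 0.532 over the alternatives). The other markers overlapped, with log2 fold changes of 0.26 (SE 0.23) for Flt3, -0.01 (SE 0.16) for Zbtb46, 0.10 (SE 0.32) for Siglech and -0.01 (SE 0.13) for Fscn1.

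Thus 0 of the 8 markers passed edgeR's adjusted threshold of 0.05 on day 21, where 0.574% of 15503 genes did. At an unadjusted level, 3 markers had a p under 0.05, as did 1658 of the 15503 genes, and DESeq2 called 2 markers and 492 of 20011 genes. In 3 markers the groups did not overlap in CPM, 2 higher and 1 lower, where 3.18% of all genes did not.

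The leukocyte content moved with these values. The sum of 16 genes of all leukocytes was 843 to 1420 CPM in dual ICI and 714 to 868 CPM in untreated mice on day 21, with Evi2b at or under 3 counts. When libraries were scaled to these leukocyte genes in place of all genes, the median of all genes moved to -0.56 on the log2 scale. With that scaling, Clec9a (0.41, SE 0.24, edgeR adjusted p = 0.159) and Xcr1 (0.55, SE 0.32, adjusted p = 0.16) were still above 0. Batf3 (-0.06), Flt3 (-0.37) and Siglech (-0.47) changed sign. At this scale 6569 of 15503 genes were called, 6499 of them lower. Of the 8 markers, 3 were called lower: Cd209a (-1.22, SE 0.24, edgeR adjusted p = 0.00742), Zbtb46 (-0.60, SE 0.20, adjusted p = 0.0327) and Fscn1 (-0.60, SE 0.19, adjusted p = 0.0241). The last 2 lay near the median of all genes. Which of the leukocytes carried the difference was not tested.

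**Figure D2:**
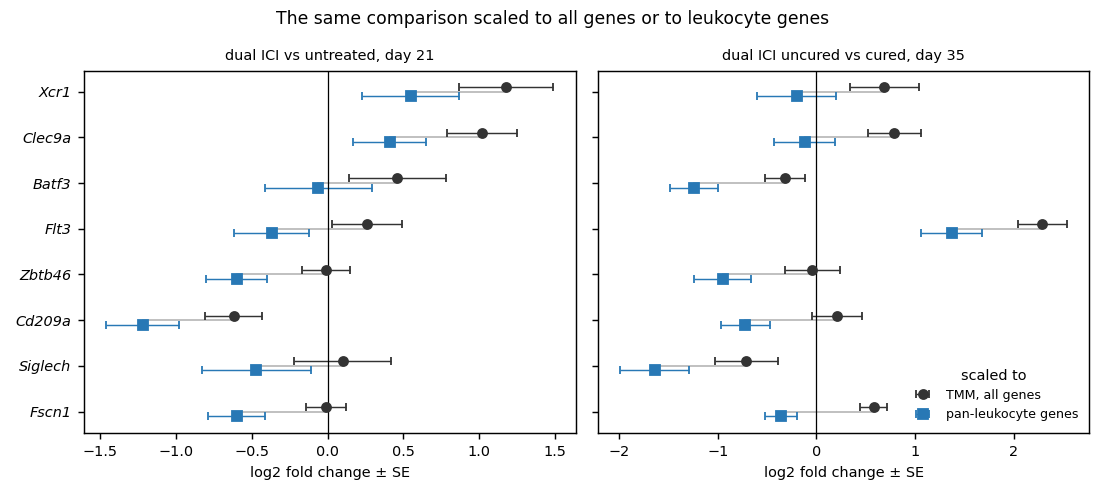
Log2 fold change with its SE (x axis) of each marker under both scalings, for dual ICI against untreated mice on day 21 (left) and uncured against cured mice on day 35 (right). Circles are scaled to all genes and squares to pan-leukocyte genes. On day 21 Xcr1 and Clec9a are above 0 with both scalings, and on day 35 only Flt3 is above 0 with both, at 2.29 and 1.37.

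Other dendritic cell genes were read from lists of known markers. On day 21, where 0.574% of all genes were called, 1 of 12 cDC1 genes was called higher and none lower. The list median was 0.48 against 0.02 over all genes. This gene was Irf8, a transcription factor needed for cDC1 that macrophages and B cells also express, at 69.9 ± 13.0 CPM in dual ICI and 35.4 ± 7.22 CPM in untreated mice (SD, n = 5 each, log2 fold change 0.99, SE 0.17, edgeR adjusted p = 0.0322). Of 8 genes shared by dendritic cells, H2-DMb2, which helps load peptides on MHC class II, was called higher (1.42, SE 0.16, edgeR adjusted p = 0.00681), and the list median was 0.20. No gene was called among 10 of cDC2 (median 0.18), 13 of pDC (0.10) and 16 of mature dendritic cells (0.30). With leukocyte scaling these 5 list medians fell below 0, to -0.15, -0.38, -0.40, -0.54 and -0.33 in the same order, where the median of all genes was -0.56. With that scaling H2-DMb2 kept its call (0.84, edgeR adjusted p = 0.0136) and Irf8 lost it (0.37, adjusted p = 0.133).

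Among 15 ligands and factors that act on dendritic cells, 2 were called higher on day 21 and none lower (median 0.79), against 0.574% of all genes. Both are chemokines made mainly by T cells, NK cells and macrophages: Ccl5, at 18.1 ± 7.20 against 3.58 ± 0.742 CPM (log2 fold change 2.34, SE 0.28, edgeR adjusted p = 0.00681), and Ccl4, at 3.75 ± 1.14 against 0.675 ± 0.256 CPM (2.47, SE 0.32, adjusted p = 0.0119). Flt3l, the ligand of FLT3, was 21 ± 1.33 CPM in dual ICI and 21.6 ± 3.31 CPM in untreated mice (-0.04, SE 0.12, edgeR adjusted p = 0.968). Xcl1, the ligand of XCR1, was 0.768 ± 0.128 against 0.430 ± 0.181 CPM from at most 30 counts per library (0.84, SE 0.30, edgeR adjusted p = 0.317).

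On day 35, all 5 dual ICI mice together gave 0 of 8 markers called by edgeR, as in the whole table (0% of 15588 genes), with 1 marker at an unadjusted p under 0.05 and 0 called by DESeq2. That marker was Siglech, with a log2 fold change of 0.95 (SE 0.36, edgeR adjusted p = 0.633). The dual ICI group joined mice with and without tumor, and Flt3 showed it most: 4.65 and 4.94 CPM in uncured mice 1 and 5, and 0.973, 1.02 and 0.872 CPM in cured mice 2, 3 and 4. The outcomes were therefore set apart.

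Flt3 in the untreated mice of day 35 was 2.98, 1.75, 3.25, 2.75 and 1.61 CPM, so both uncured mice lay above and all cured mice below them. The anti-PD1 mice spanned 1.6 to 4.70 CPM and the anti-CTLA4 mice 2.65 to 3.47 CPM, and no mouse of day 21 was under 2.57 CPM, so the cured mice lay below all 26 other mice. Cured against untreated mice, the log2 fold change was -1.34 (SE 0.33, edgeR adjusted p = 0.00982), and it kept its call in every alternative (adjusted p at most 0.0493, with leukocyte scaling). For the uncured mice it was 0.95 (SE 0.33), with an unadjusted p of 0.0184 and an edgeR adjusted p of 0.735. Between the outcomes, Flt3 was higher in uncured mice by 2.29 on the log2 scale (SE 0.25, edgeR adjusted p = 5.86e-05, at most 0.00165 over the alternatives). The 3 comparisons share their mice, so their values are given side by side only.

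The cDC1 receptors did not follow Flt3 in the cured mice. Clec9a was 2.20, 3.07 and 1.99 CPM in cured mice, 4.78 and 3.76 CPM in uncured mice, and 2.38, 3.09, 2.20, 3.98 and 1.97 CPM in untreated mice. The cured mice lay inside the untreated range, and uncured mouse 1 lay above it. Against untreated mice, the log2 fold change was -0.14 (SE 0.31, edgeR adjusted p = 0.723) in cured and 0.64 (SE 0.33, adjusted p = 0.735) in uncured mice, the latter turning to -0.07 with leukocyte scaling.

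Xcr1 was 1.07, 1.27 and 1.65 CPM in cured mice, 2.79 and 1.61 CPM in uncured mice, and 2.17, 0.813, 1.38, 1.55 and 0.763 CPM in untreated mice. The cured mice lay inside the untreated range. The log2 fold change against untreated mice was 0.02 (SE 0.39, edgeR adjusted p = 0.975) in cured and 0.70 (SE 0.45, adjusted p = 0.735) in uncured mice. Compared with cured mice, Clec9a was called higher in uncured mice (0.79, SE 0.27, edgeR adjusted p = 0.0299) and Xcr1 was not (0.69, SE 0.35, adjusted p = 0.114). The call of Clec9a was lost without uncured mouse 1 (adjusted p = 0.164) or cured mouse 2 (0.0792) or 4 (0.1), and its sign turned with leukocyte scaling (-0.12, edgeR adjusted p = 0.741).

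The pDC marker Siglech was higher in cured mice: 2.66, 2.87 and 1.84 CPM, against 1.32, 0.650, 1.08, 1.75 and 0.646 CPM in untreated mice. Every cured mouse lay above every untreated mouse, with cured mouse 4 close to untreated mouse 4. The log2 fold change was 1.20 (SE 0.37, edgeR adjusted p = 0.026), from 38 to 59 counts per cured library. Uncured mice held 1.28 and 1.77 CPM, overlapping the untreated mice (0.49, SE 0.45, edgeR adjusted p = 0.755). The call in cured mice was lost without cured mouse 2 (adjusted p = 0.0794) or 3 (0.101) and without untreated mouse 3 (0.0519) or 5 (0.0537). It was also lost with the replicate number as a block (1.16, edgeR adjusted p = 0.123).

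Fscn1 was lower in cured mice, at 44.5, 39.2 and 33.6 CPM, against 56.1, 56.7, 55.6, 58.0 and 46.1 CPM in untreated mice and 52.7 and 66 CPM in uncured mice. The cured mice lay below all mice of both groups. The log2 fold change was -0.46 (SE 0.14, edgeR adjusted p = 0.0273) against untreated mice, and uncured against cured mice it was 0.58 (SE 0.14, adjusted p = 0.00615). The first call was lost with leukocyte scaling (-0.26, adjusted p = 0.544) and without cured mouse 3 (0.0864) or 4 (0.14) or untreated mouse 1 (0.0519), 3 (0.0513) or 4 (0.0506). With the replicate number as a block that call was lost too (-0.54, edgeR adjusted p = 0.112). The second was lost without uncured mouse 5 (0.0684) and turned its sign with leukocyte scaling (-0.36, edgeR adjusted p = 0.0547).

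Batf3 was 5.48, 4.97 and 5.23 CPM in cured mice and 4.01 and 4.53 CPM in uncured mice, within the 1.88 to 7.16 CPM of untreated mice. Zbtb46 was 3.84, 6.82 and 7.02 CPM in cured mice, on both sides of the 5.27 to 6.02 CPM of untreated mice. Cd209a was 4.40, 5.21 and 5.18 CPM in cured mice and 2.97 to 9.62 CPM in untreated mice. Their log2 fold changes in cured mice were 0.47 (SE 0.38), 0.08 (SE 0.23) and -0.18 (SE 0.34), with edgeR adjusted p-values from 0.323 to 0.792. With leukocyte scaling Cd209a turned its sign there (0.12), as did Clec9a (0.04). With leukocyte scaling, uncured against cured mice, Batf3 (-1.24, SE 0.24, edgeR adjusted p = 0.000608), Siglech (-1.64, SE 0.35, adjusted p = 0.00121), Zbtb46 (-0.95, SE 0.29, adjusted p = 0.00988) and Cd209a (-0.72, SE 0.25, adjusted p = 0.0192) were called lower in the uncured mice, and Flt3 remained higher (1.37, SE 0.31, adjusted p = 0.00165). In that fit 12339 of 15796 genes were called, 9776 of them lower, and the median of all genes was -0.86.

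In all, 3 of 8 markers were called in cured against untreated mice, 1 higher and 2 lower, where 44.7% of 15816 genes were called, and the groups did not overlap in 3 of 8 markers where they did not in 47.2% of genes. Uncured against cured mice, 3 of 8 were called where 70% of 15796 genes were, and 5 of 8 did not overlap where 81.1% of genes did not. Uncured against untreated mice, 0 of 8 were called by edgeR (0% of 16156 genes), 1 had an unadjusted p under 0.05 and DESeq2 called 0. Flt3 was the only marker that did not overlap there, where 17.5% of genes did not. The markers were thus called no more often than all genes in either comparison with cured mice. The cured libraries differed in content as given above (muscle sums of 364000 to 404000 CPM against 65100 to 320000 CPM in untreated mice, leukocyte sums of 476 to 510 against 388 to 839 CPM), and the part of this in the marker levels was not tested.

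**Figure D3:**
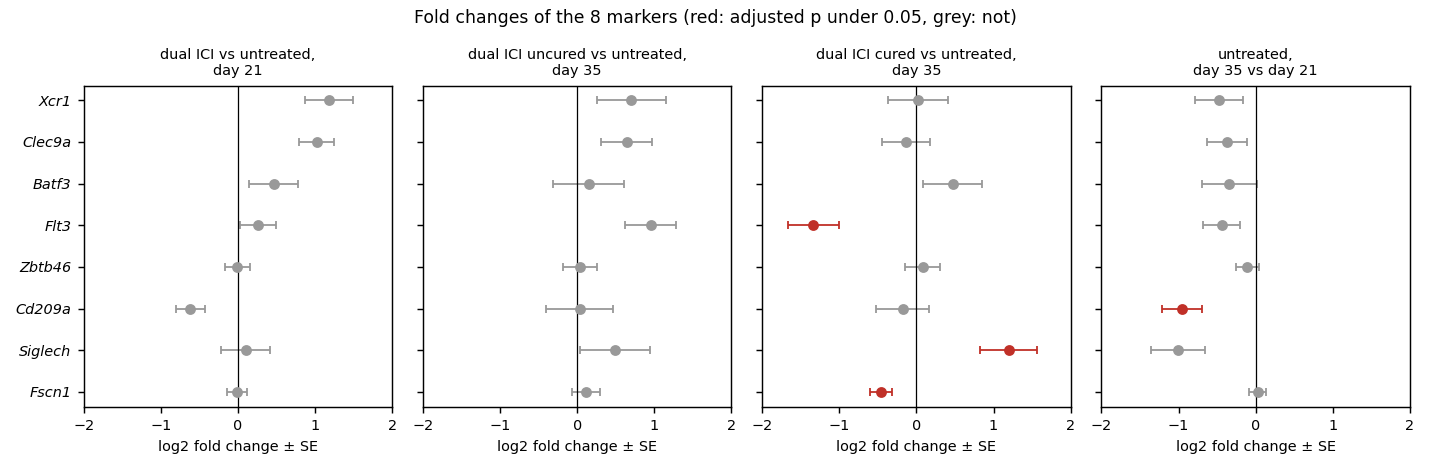
Log2 fold change with its SE (x axis, first group against second) of the 8 markers (y axis) in 4 comparisons. Red points have an edgeR adjusted p under 0.05: Flt3, Siglech and Fscn1 in cured mice and Cd209a between untreated mice of day 35 and day 21.

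The lists placed these markers among related genes. Of 17 genes of mature dendritic cells, 7 were called lower and 1 higher in cured against untreated mice, a share near the 44.7% of all genes. The list median was -0.93 against -0.05 over all genes. With leukocyte scaling 0 were called higher and 6 lower. Ccr7, a receptor that guides mature dendritic cells and naive T cells to lymph nodes, was 0.528 ± 0.253 CPM in cured and 3.57 ± 1.14 CPM in untreated mice (-2.73, SE 0.42, edgeR adjusted p = 0.00101). The chemokine genes Ccl17 (-3.98, SE 0.77, adjusted p = 0.00331) and Ccl22 (-2.18, SE 0.39, adjusted p = 0.00226) and the calcium channel subunit gene Cacnb3 (-2.64, SE 0.27, adjusted p = 0.000168) were also lower. In the comparison of uncured with cured mice, 14 of 17 were called higher and 1 lower (median 1.53), where 70% of all genes were called. These became 7 and 4 with leukocyte scaling. Of 15 tested genes of all leukocytes, 14 were called higher and 0 lower there (median 0.90). In cured against untreated mice, 0 of those 15 were called higher and 2 lower (median -0.27). Il12b, which encodes a subunit of IL-12, was 1.73 ± 0.137 CPM in uncured and 0.166 ± 0.0813 CPM in cured mice (3.33, SE 0.45, edgeR adjusted p = 0.0002).

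Of 12 further cDC1 genes, 5 were called lower and 1 higher in cured mice (median -0.36), a share near the 44.7% of all genes. Itgae, which encodes CD103 and is also found on T cells, was 1.38 ± 0.387 against 6.91 ± 1.6 CPM in untreated mice (-2.29, SE 0.30, edgeR adjusted p = 0.000406). Tlr3 (-1.42, SE 0.28, adjusted p = 0.00328) and Irf8 (-1.12, SE 0.20, adjusted p = 0.00221) were lower as well, and Cadm1, an adhesion molecule gene that other tissues also express, was higher (1.4, SE 0.24, adjusted p = 0.00194). Xcr1 and Clec9a overlapped between cured and untreated mice. Compared with cured mice, 7 of 12 in uncured mice were called higher and 1 lower, near the 70% of all genes, and 3 higher and 4 lower with leukocyte scaling.

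The cDC2 list went both ways in cured mice, with 3 of 10 genes called higher and 2 lower (median 0.30), near the 44.7% of all genes. Irf4, a transcription factor of cDC2 and lymphocytes, rose from 7.62 ± 1.68 to 25.6 ± 1.98 CPM (1.77, SE 0.19, edgeR adjusted p = 0.000182), and Mgl2, a lectin of cDC2 and macrophages, from 25.8 ± 10.2 to 60.1 ± 16.2 CPM (1.24, SE 0.32, adjusted p = 0.013). Cd7 (-1.6, SE 0.48, adjusted p = 0.0228) and Dtx1 (-1.29, SE 0.24, adjusted p = 0.00254) were lower, and Cd7 lost its call with leukocyte scaling (-1.34, adjusted p = 0.0901). Between uncured and cured mice, where 70% of all genes were called, all 10 were called, 4 higher and 6 lower in uncured mice (median -0.53). With leukocyte scaling 2 were called higher and 6 lower. Against these, Cd209a overlapped between the groups.

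In the pDC list, 4 of 13 genes were called lower and 1 higher in cured mice (median -0.47), fewer than the 44.7% of all genes. The lower ones were Ly6d (-5.50, SE 0.83, edgeR adjusted p = 0.000878), Spib (-3.79, SE 0.54, adjusted p = 0.000677), Runx2 (-2.82, SE 0.36, adjusted p = 0.000361) and Lair1 (-1.77, SE 0.42, adjusted p = 0.00878). Ly6d, Spib and Runx2 are also expressed by B cells, epithelia or stroma. The list did not follow Siglech, which was called higher in cured mice. Between uncured and cured mice, 8 of 13 were called higher and 1 lower, near the 70% of all genes. The lower one was Cox6a2, a muscle gene that pDC also use, at 147 ± 33.4 CPM in uncured and 1010 ± 109 CPM in cured mice (-2.80, SE 0.17, edgeR adjusted p = 1.94e-06).

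Of the 8 genes shared by dendritic cells, Itgax, which encodes CD11c, was 5.72 ± 0.766 CPM in cured and 20.7 ± 8.57 CPM in untreated mice (-1.83, SE 0.34, edgeR adjusted p = 0.00257). Amica1 was lower (-1.61, SE 0.40, adjusted p = 0.0106) and Adam23, which neurons also express, higher (1.10, SE 0.20, adjusted p = 0.00231), and the list median was 0.17. So 2 of the 8 were called lower and 1 higher, where 44.7% of all genes were called. In uncured mice, 4 of these 8 genes were called higher and 2 lower than in cured mice, near the 70% of all genes. With leukocyte scaling H2-DMb2 lost its call there (0.02, edgeR adjusted p = 0.942), while Itgax (1.80), Amica1 (1.19) and Adam23 (-1.94) kept theirs.

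Among the 15 ligands and factors, 8 were called lower and none higher in cured mice (median -0.77, the same with Xcl1 and Ccl4 at their bounds). Of all genes, 44.7% were called there. The interferon-induced chemokine Cxcl9, which draws CXCR3+ T cells, was 3.28 ± 1.26 CPM in cured and 40.4 ± 12.4 CPM in untreated mice (-3.60, SE 0.35, edgeR adjusted p = 0.000153), with Cxcl10 (-3.61, SE 0.31, adjusted p = 0.000128) and Ccl3 (-3.02, SE 0.70, adjusted p = 0.00788) beside it. Xcl1 reached at most 3 counts in each cured library. Against a floor of 3 counts per library it was at least 3.76-fold higher in untreated and at least 5.32-fold higher in uncured mice, and Ccl4 was at least 5.73-fold and 13.2-fold higher, and Xcr1 itself lay within the untreated range in the cured mice. Flt3l was 16.6 ± 3.06 CPM in cured and 18.7 ± 3.14 CPM in untreated mice (-0.15, SE 0.18, edgeR adjusted p = 0.517), while its receptor gene Flt3 was called lower. Uncured against cured mice, 12 of the 15 were called higher and 1 lower, where 70% of all genes were called. Flt3l was among the higher ones (0.48, SE 0.15, edgeR adjusted p = 0.0209), though it turned its sign with leukocyte scaling (-0.45, adjusted p = 0.0532).

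**Figure D4:**
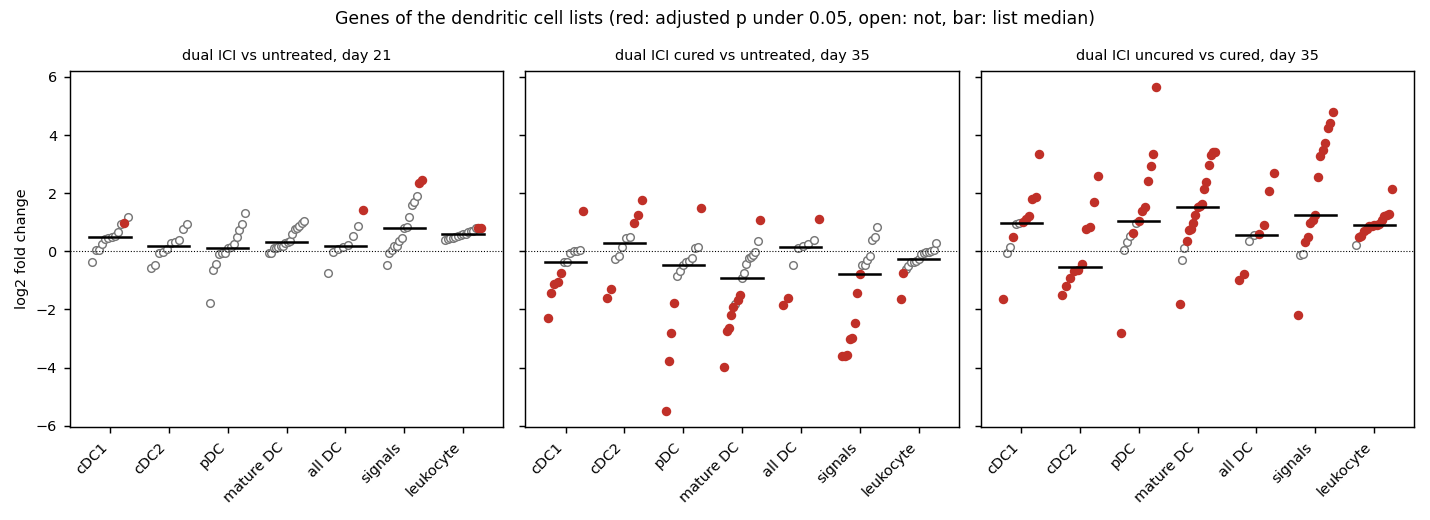
Log2 fold change (y axis) of each tested gene of the dendritic cell and leukocyte lists (x axis) in 3 comparisons. Red points have an edgeR adjusted p under 0.05, open points do not, and the bar is the list median. The median of the mature list is 0.30 on day 21, -0.93 in cured against untreated and 1.53 in uncured against cured mice.

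No marker passed the test under either monotherapy. Anti-PD1 gave 0 of 8 called by edgeR (0% of 15640 genes), with log2 fold changes from -0.22 for Cd209a to 0.21 for Flt3, 0 markers at an unadjusted p under 0.05 and 0 called by DESeq2. Anti-CTLA4 gave 0 of 8 (0% of 15781 genes), from -0.23 for Batf3 to 0.46 for Cd209a, again with 0 at an unadjusted p under 0.05 and 0 by DESeq2. The SEs ran from 0.14 to 0.46, so changes within such a spread were not detectable with these mice. Larger changes can also go uncalled, as Clec9a did on day 21 (1.02, SE 0.23). Xcr1 averaged 1.4 ± 0.454 CPM in anti-PD1 (n = 5), 1.31 ± 0.185 CPM in anti-CTLA4 (n = 4) and 1.34 ± 0.582 CPM in untreated mice (SD, n = 5). Anti-PD1 mouse 5, the library low in epithelium genes, had the lowest Flt3 of its group (1.6 CPM) and the highest Clec9a (4.70 CPM), Batf3 (4.75 CPM) and Siglech (1.65 CPM).

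Between untreated mice, Cd209a and Siglech stood lower on day 35 than on day 21. Cd209a was 9.62, 4.03, 5.63, 6.12 and 2.97 CPM on day 35, and 9.67 to 12.6 CPM on day 21. The groups just failed to overlap, with day 35 mouse 1 beside the lowest mouse of day 21, at a log2 fold change of -0.96 (SE 0.26, edgeR adjusted p = 0.04). Siglech was 1.09 ± 0.468 against 2.19 ± 0.694 CPM (SD, n = 5 each), overlapping, with -1.01 (SE 0.35, edgeR adjusted p = 0.0794, DESeq2 adjusted p = 0.0263). So 1 of 8 markers was called, where 10.8% of 15604 genes were, and 1 of 8 did not overlap where 11.2% of genes did not. The call of Cd209a was kept only without untreated day 35 mouse 1 or 2, was lost when any other of the 10 mice was left out (adjusted p from 0.0637 to 0.0898) and was lost with leukocyte scaling (-0.65, edgeR adjusted p = 0.0698). The libraries of each day carry identifiers of their own in the labels, and day and any other difference between these sets cannot be told apart. Of related genes, the cDC2 genes Cbfa2t3 (-1.16, SE 0.23, edgeR adjusted p = 0.0143) and Mgl2 (-0.89, SE 0.25, adjusted p = 0.0458) were called lower on day 35 and none of the 10 higher, and both lost their calls with leukocyte scaling (-0.65, adjusted p = 0.179, and -0.54, adjusted p = 0.153). The pDC list did not follow Siglech there, with Ly6d (2.38, SE 0.51, edgeR adjusted p = 0.0182) and Spib (1.6, SE 0.36, adjusted p = 0.0215) called higher on day 35 and Tlr7 (-1.05, SE 0.30, adjusted p = 0.0454) lower, of 13. In the other lists Relb was called higher (0.70, SE 0.18, edgeR adjusted p = 0.0314) among 17 genes of mature dendritic cells, Tlr11 lower (-1.32, SE 0.35, adjusted p = 0.0362) among 12 of cDC1, Kmo lower (-0.90, SE 0.24, adjusted p = 0.034) among 8 shared genes, and Zeb2 (-0.92, SE 0.18, adjusted p = 0.0143) and Nfil3 (-0.83, SE 0.24, adjusted p = 0.0464) lower among the 15 ligands and factors. With leukocyte scaling Relb, Ly6d, Spib and Tlr7 kept their calls and Tlr11, Kmo, Zeb2 and Nfil3 lost them.

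The effect of dual ICI was compared between day 21 and the uncured mice of day 35 by an interaction term. The dual ICI mice of day 35 were chosen here as uncured, whereas those of day 21 have no outcome. Day, number of injections, choice by outcome and set of libraries cannot be told apart in this term. For 0 of 8 markers did it pass edgeR's adjusted threshold (0% of 16542 genes), with 0 at an unadjusted p under 0.05 and 0 by DESeq2. The largest terms were 0.70 (SE 0.40) for Flt3, 0.66 (SE 0.44) for Cd209a and -0.47 (SE 0.56) for Xcr1, as log2 differences of day 35 minus day 21.

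Over the 7 groups, each gene had its own order. The mean of Xcr1 was highest in dual ICI mice on day 21 (4.21 ± 1.89 CPM), followed by uncured mice (2.20 ± 0.837) and untreated mice on day 21 (1.87 ± 0.423), while the 4 other groups lay between 1.31 and 1.4 CPM and did not differ beyond their SDs. Clec9a had the same leading 3 groups, at 7.11, 4.27 and 3.51 CPM, and only the step below the first was larger than the SDs. For Flt3 only the step to the cured mice was (2.47 to 0.956 CPM), and likewise for Fscn1 (50.4 to 39.1 CPM). No neighbouring groups differed beyond their SDs for Batf3, Zbtb46, Cd209a or Siglech. Zbtb46 was nearly level, with group means from 5.66 to 6.12 CPM.

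The genes most like each marker were picked from 16752 genes by Pearson's r of log2 CPM over the 29 libraries. These libraries share tissue content and group. For Xcr1 they were the MHC class II genes H2-DMb2 and H2-Aa (r = 0.88 each) and Gpr33 (0.86). For Clec9a they were Slamf8, Gimap4 and Wars (0.84, 0.84 and 0.83), and for Flt3 Sirpb1b, Traf1 and Tnfrsf1b (0.92, 0.91 and 0.91). Batf3 was most like Dok2, Ltb4r1 and Traf5 (0.87, 0.86 and 0.86). Lower values were found for Siglech (Itgb7, 5031425F14Rik and Ccr3, from 0.80 to 0.82), Cd209a (Col14a1, Tuba1a and Cd209c, from 0.77 to 0.79), Fscn1 (Prrx2, Gnai2 and Chst2, from 0.79 to 0.84) and Zbtb46 (Aknad1, Mill2 and Ppp2r2c, from 0.61 to 0.66).

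After the mean of each group was subtracted, Xcr1 was most like Zfp101, Gimap3 and Sh2d2a (r from 0.68 to 0.69), Clec9a like Znf41-ps, Zfp825 and Xrcc4 (0.69 to 0.73), Batf3 like Cd2, Dok2 and Ltb4r1 (0.84 to 0.87) and Flt3 like Pilrb2, Itprip and Traf1 (0.80 to 0.83). Zbtb46 was most like Ppp2r2c, Mill2 and Nhsl2 (0.70 to 0.73) and Cd209a like Kmo, Col14a1 and Rgs18 (0.78 to 0.83). Siglech was most like 5031425F14Rik, Itgb7 and H2-Aa (0.71 to 0.75) and Fscn1 like Rps6ka4, Prrx2 and Pofut2 (0.79 to 0.82). With both bases, these genes had the highest r of 16752 genes. How high r would reach by chance among so many genes was not tested, so they are not shown to be partners of the markers. Among the markers themselves, Xcr1 and Clec9a had r = 0.77 over the 29 libraries and 0.25 after the group means were subtracted, whereas Batf3 had 0.37 with Xcr1 and 0.51 with Clec9a, and then -0.05 and 0.28. Flt3 went with the summed epithelium genes (r = 0.79, and 0.63 within groups) and against the summed muscle genes (-0.65 and -0.61), whereas Batf3 went with the muscle genes (0.60 and 0.63). Xcr1 had an r of 0.07 with the epithelium and -0.05 with the muscle genes. With Ptprc, a gene of the leukocyte list, Xcr1 had 0.82 and Clec9a 0.72, and within groups 0.51 and 0.06. Fscn1 went with the epithelium genes (0.68, and 0.37 within groups). Siglech went with the muscle genes (0.47 and 0.31) and against the epithelium genes (-0.40 and -0.17).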

How the data were processed

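RNA-seq of 29 libraries was analysed from the deposited raw counts per gene, made by the authors from paired-end reads aligned to mm10. The labels name STAR 2.7.0f and featureCounts 1.6.4, and the study's methods name STAR with HTSeq. Annotation and strand setting are not given in the sources used here. No row lacked a gene name.

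Groups were compared with edgeR 4.0.16 in R 4.3.3 (two-sided quasi-likelihood tests by glmQLFit and glmQLFTest after TMM and filterByExpr) on the libraries of the compared groups alone. A gene is called at a Benjamini-Hochberg adjusted p under 0.05 over all genes tested. CPM use TMM-scaled library sizes over the 29 libraries. TMM factors ranged from 0.692 to 1.22. A gene with at most 3 counts in every library of a group was taken as at the floor, and floors cover counting error only. Likeness used log2 CPM with a prior count of 2. Exon lengths and positions came from GENCODE vM21 (GRCm38). The fit was tested on simulated counts. Each library is a separate mouse, so the SD holds counting error and differences between mice together.

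The 8 genes and the lists were chosen with earlier results of these data known. Named genes were the 8 markers, up to 4 called genes per dendritic cell list and comparison with the largest log2 fold change, Flt3l, Xcl1 and the 3 most alike genes per marker. Ptprc was named in the correlations only. Other markers of T cells, macrophages, B cells, mesothelium, fibroblasts and endothelium were read as lists. Alternatives were DESeq2 1.42.0, RLE size factors, pan-leukocyte scaling, no filter on low counts, leaving out skeletal muscle genes, blocking on the replicate number, 1 fit over the 29 libraries, an interaction with all 5 dual ICI mice of day 35, and each mouse left out. Tables and figures used Python 3.11.15, pandas 2.3.3, numpy 2.4.6 and matplotlib 3.10.9.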

Additional observations from a re-analysis of the deposited data

Results flagged for a closer look

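Of 40 sets of 4 or 5 mice, each for 1 marker in 1 group, 2 had a mouse far from the others by Dixon's test, and chance alone flags about 1 in 20. Clec9a in anti-PD1 mouse 5 was 4.70 CPM, where the next highest mouse of the group was 2.54 CPM. This mouse also had the lowest sum of epithelium genes outside the cured mice (70.8 CPM). Fscn1 in untreated mouse 5 of day 35 was 46.1 CPM, where the next lowest mouse was 55.6 CPM. No marker had an interaction of dual ICI with day past the threshold.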

How the results depend on the processing

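On day 21, the count of genes called by edgeR was 89, and 492 by DESeq2, 6569 with leukocyte scaling and 209 with the replicate number as a block. Leaving out untreated mouse 1, 2, 3, 4 or 5 gave 13, 52, 34, 23 or 6 genes, leaving out dual ICI mouse 3 or 5 gave 16 or 30, and the count ranged from 6 to 119 over all mice left out in turn. Markers called were 0 in the main test and without any mouse, 2 by DESeq2, 3 with leukocyte scaling and 1 (Clec9a) in the fit of all 29 libraries and with the block. On day 35, DESeq2 called 45 genes for all dual ICI mice, 17 for the uncured mice and 1 for the interaction, where edgeR called 0. For cured against untreated mice, 7067 genes became 3708 with leukocyte scaling, 4016 with the block and 4491 and 4515 without cured mice 3 and 4 (4491 to 9388 over all mice left out), and 3 markers became 1 with the block (Flt3) and 1 without cured mouse 3 or untreated mouse 3 (range 1 to 3). Uncured against cured mice, 3 markers became 5 with leukocyte scaling, which turned Clec9a to -0.12 and Fscn1 to -0.36 on the log2 scale, and 2 to 3 with a mouse left out. A mouse left alone in its group was assumed to vary like the others. With leukocyte scaling, 12339 of 15796 genes were called in uncured against cured mice, and 11063 in the main test. Between untreated mice, 1687 genes became 3127 by DESeq2 and 3479 with leukocyte scaling, 4915, 1078 and 724 without day 35 mice 2, 4 and 5, and 735, 692, 854 and 654 without day 21 mice 1, 2, 3 and 5 (654 to 4915 in all), and 1 marker became 2 by DESeq2 and 0 with leukocyte scaling (0 to 1 with a mouse left out). The cause of these changes was not tested. The numbers were not taken to pair the mice: over all comparisons, the deviations of same-numbered mice had correlations from -0.645 to 0.695, and in each comparison at least 1 pair was at or under 0.1 (-0.218 on day 21, -0.378 for all dual ICI mice and -0.056 for anti-CTLA4 mice on day 35). Among the marker fold changes with an unadjusted p under 0.05, the 2 sign changes given above were the ones found. Leukocyte scaling also turned the sign of smaller fold changes, among them Batf3, Flt3 and Siglech on day 21. Low counts limit Xcr1, Siglech and Flt3, and 2 or 3 mice per outcome limit every comparison that uses the outcome, the interaction included.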

Other observations

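Lists of other leukocytes were read beside the markers. On day 21, where 0.574% of all genes were called, 3 of 13 T cell genes were called higher by edgeR under dual ICI (median 1.20), and 0 of 12 macrophage genes (median 0.56) and 0 of 5 B cell genes (median 0.59). In cured against untreated mice, where 44.7% of all genes were called, 7 T cell genes were called lower and 1 higher (median -1.11), 1 of 12 macrophage genes lower (median -0.39) and 0 of 6 B cell genes (median -0.21). Uncured against cured mice, where 70% were called, 11 of 13 T cell, 10 of 12 macrophage and 2 of 6 B cell genes were called higher.

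Tissue lists were read in the same way. In cured against untreated mice, where 44.7% of all genes were called, 13 of 14 epithelium genes were called lower (median -5.60) and 11 of 28 skeletal muscle genes higher (median 1.43), with 3 of 10 fibroblast genes higher and 1 lower, 2 of 9 endothelium genes higher, and 1 of 6 mesothelium genes higher and 3 lower. Between untreated mice, where 10.8% of all genes were called, 7 of 10 fibroblast genes were called lower on day 35 than on day 21 (median -0.85). Cd209a was called lower there too. Their part in the marker levels was not tested.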
